A study of Mus musculus with 46 samples.

Results

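The first hour of the response to lipopolysaccharide (LPS, the outer-membrane glycolipid of Gram-negative bacteria) was measured by mRNA sequencing in mouse bone marrow-derived macrophages (BMDMs) carrying Arid1a f/f, that is, floxed but undeleted copies of Arid1a, the gene for a DNA-binding subunit of the SWI/SNF chromatin remodelling complex. The comparison set 2 libraries of Arid1a f/f cells at 1 hr of LPS against 2 libraries of Arid1a f/f cells at 0 hr of LPS, which makes 4 of the 46 samples of the series. The members were taken by their time and genotype labels alone, and every gene of the table was open to the test. Values are TPM (transcript shares: exonic reads per exon length, scaled by library), and each library had 9931802 to 12045686 exonic reads.

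Other groups of the series serve here only beside these 4 libraries. In the same experiment, Arid1a f/f cells at 4 hr of LPS and Arid1a-/- cells at 1 hr of LPS had 2 libraries each. In experiment 1, cells labelled WT were given lipid A, the part of LPS that binds the receptor TLR4, and 1 hr was set against 0 hr. In experiment 4, WT cells at 60 min of lipid A were set against WT cells at 0 min, again with 2 libraries in every group. All cells are BMDMs, which are grown from marrow in culture and are not tissue macrophages. The labels name no age, sex, Cre driver or LPS dose and do not give the animal or culture behind each replicate, so the p-values below measure spread between these libraries only, and that spread may be technical. The 1 hr libraries are labelled polyA RNA and the 0 hr libraries total RNA in one field, although both are described as strand-specific polyA+ RNA in another. This label splits the 1 hr from the 0 hr group, so its part in the differences was not tested and cannot be told apart from that of LPS. The titles of the 0 hr and 4 hr f/f libraries also carry a tag, RNA-seq, that those of the 1 hr libraries lack. Comparisons of 1 hr with either time therefore cross a difference in labels.

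LPS is carried by the co-receptor CD14 to TLR4, which signals through the adaptors MYD88 and TRIF. These pathways release NF-kB from its IkB inhibitors and activate MAP kinases and IRF3, and they switch on genes that need no new protein (primary genes), including the inhibitors that later end the signal. Genes that need newly made proteins, many of them under the control of secreted interferon-beta, follow as secondary genes.

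Of 11798 genes tested in limma, 1607 (13.6%) rose and 2391 (20.3%) fell at 1 hr relative to 0 hr. A gene is said to have risen or fallen when its p, adjusted by Benjamini and Hochberg over all genes tested, was under 0.05 with the same sign on the deposited TPM and on TPM after median-ratio scaling of each library. The scaling was used because TPM are shares of a total. Risen genes held 30.1% to 30.2% of the listed TPM at 1 hr, against 13.7% to 13.9% at 0 hr, and the median log2 change of all tested genes was -0.15 as deposited and -0.01 after scaling. Counts of list members below are to be read against these shares of all genes, 13.6% risen and 20.3% fallen. Of all calls, 40.2% were higher at 1 hr, against 30.7% when deposited TPM alone decided (1612 higher, 3634 lower) and 47.3% when scaled TPM alone did (2143 higher, 2391 lower). Most calls were small. A log2 change of at least 1 was reached by 549 risen genes (4.65% of those tested) and 570 fallen genes (4.83%), and one of at least 2 by 233 risen genes (1.97%) and 35 fallen genes (0.297%). At a log2 change of 5 or more there were 37 risen genes and no fallen gene. Throughout, changes are on the log2(TPM + 1) scale with their standard error, positive when higher at 1 hr, and this scale understates the change of genes near the detection floor of about 0.156 to 0.189 TPM (3 reads on a 2 kb transcript).

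The 2 resting libraries were not alike for inducible genes. Of 227 genes that rose by at least 2 on the log2 scale and have at least 200 bases of exon, 22 were higher by at least 1 in resting replicate 1 than in resting replicate 2, and none was lower by that much. The 2 libraries at 1 hr differed by that much in neither direction for any of these 227 genes. Among the named genes, leaving out resting replicate 1 or resting replicate 2 moved the log2 change of 8 by more than 1.5 times in fold, and both values are given with each of these genes. The origin of this difference was not tested. With only resting replicate 2 as the reference, 1234 genes rose (10.5%) and 1589 fell (13.5%), and with only resting replicate 1, 1172 rose (9.93%) and 1535 fell (13.0%). Without replicate 1 at 1 hr, 1104 rose and 1511 fell, and without replicate 2 at 1 hr, 1147 rose and 1468 fell.

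The sequences just before 5 strongly risen genes are shown because they hold a motif that NF-kB is known to bind or a core promoter element. The 250 bases before the start site are given 5′ to 3′ on the strand of the gene, from RefSeq on GRCm38.p6 (the assembly also called mm10). Capitals mark a match to the NF-kB binding (kB) motif in Cxcl2, Cxcl1 and Nfkbia, and the letters TATAAA, a core promoter element, in Tnf and Il1b. Both strands were searched, and in Cxcl2 and Cxcl1 the capitals cover 2 overlapping matches. All 5 were searched for both motifs, and none was found of the kB motif in Tnf or Il1b or of TATAAA in Cxcl2, Cxcl1 or Nfkbia.
Cxcl2 (chr5:90903649-90903898, plus strand): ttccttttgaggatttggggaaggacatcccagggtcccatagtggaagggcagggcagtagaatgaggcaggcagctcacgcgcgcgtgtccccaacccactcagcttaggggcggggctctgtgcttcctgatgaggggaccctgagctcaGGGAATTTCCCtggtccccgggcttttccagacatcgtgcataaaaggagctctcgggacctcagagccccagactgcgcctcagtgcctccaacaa
Cxcl1 (chr5:90890995-90891244, plus strand): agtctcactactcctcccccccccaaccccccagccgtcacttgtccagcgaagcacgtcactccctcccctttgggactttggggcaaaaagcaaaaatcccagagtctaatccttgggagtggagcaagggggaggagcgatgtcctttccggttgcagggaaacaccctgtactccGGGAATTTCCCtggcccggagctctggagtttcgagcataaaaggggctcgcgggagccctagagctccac
Nfkbia (chr12:55492648-55492897, minus strand): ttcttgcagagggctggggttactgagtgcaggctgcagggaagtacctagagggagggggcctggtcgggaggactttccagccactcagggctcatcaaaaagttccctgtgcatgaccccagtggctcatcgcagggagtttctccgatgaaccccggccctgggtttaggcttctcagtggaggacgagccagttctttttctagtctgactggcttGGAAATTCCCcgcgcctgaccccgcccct
Tnf (chr17:35202008-35202257, minus strand): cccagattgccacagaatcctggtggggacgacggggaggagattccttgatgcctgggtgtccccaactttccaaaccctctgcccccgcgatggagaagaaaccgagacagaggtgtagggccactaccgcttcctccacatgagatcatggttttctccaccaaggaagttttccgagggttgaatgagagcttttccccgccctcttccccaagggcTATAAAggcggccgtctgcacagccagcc
Il1b (chr2:129371140-129371389, minus strand): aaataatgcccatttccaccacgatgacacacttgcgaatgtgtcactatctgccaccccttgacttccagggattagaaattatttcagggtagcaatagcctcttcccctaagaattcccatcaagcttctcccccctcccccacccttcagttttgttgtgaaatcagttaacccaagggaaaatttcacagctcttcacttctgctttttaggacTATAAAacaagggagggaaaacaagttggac
The kB match begins 97 bases before the start of Cxcl2, 71 before that of Cxcl1 and 29 before that of Nfkbia. The TATAAA match begins 29 bases before the start of Tnf and 31 before that of Il1b. Over the 9248 tested genes with a promoter of this length in the table, 6.86% held a kB match and 6.40% held TATAAA. The 5 genes were shown for holding a match, so they cannot be compared with these shares. A match is a description of these letters and not a measured site. No share is given for risen genes, because the table held a promoter for 78.9% of risen genes, under the 80% asked of such a check.

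Among genes at 10 TPM or more, the 2 highest log2 changes were in chemokine genes of a cluster on chromosome 11. Ccl2, a monocyte attractant (chr11:82035577-82037452 on mm10), had 6435 and 6507 TPM at 1 hr, against 6.74 and 1.73 TPM at 0 hr, a log2 change of 10.46 ± 0.44 (limma adjusted p = 1.41e-05). Ccl7, a relative of Ccl2 that also attracts monocytes (chr11:82045712-82047523), had 3000.1 and 3013 TPM at 1 hr, against 5.75 and 0.795 TPM at 0 hr (log2 change 9.75 ± 0.57, adjusted p = 5.72e-05). In both genes the 1 hr libraries agreed closely while resting replicate 1 was several times above resting replicate 2. The groups did not overlap, which the rule for naming the highest changes required. The log2 change of Ccl2 was 11.21 without resting replicate 1 and 9.71 without resting replicate 2, and that of Ccl7 was 10.71 and 8.80 in the same order. Ccl4, an attractant of monocytes and T cells, had 3751 and 3572 TPM at 1 hr, against 30.1 and 14.1 TPM at 0 hr (log2 change 7.40 ± 0.32). Ccl12 had 189 and 195 TPM at 1 hr, against 0.782 and 1.19 TPM at 0 hr. Ccl5, a T cell attractant, had 281 and 284 TPM at 1 hr, against 5.92 and 2.40 TPM at 0 hr, and its 4 hr libraries had 8355 and 9936 TPM. Of the 12 CC chemokine genes tested, 9 rose, with a median log2 change of 4.09 against -0.15 for all genes tested. Ccl6, Ccl17 and Ccl24 did not pass, with log2 changes of 0.10, 0.27 and 0.31.

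The neutrophil attractants Cxcl1 and Cxcl2 lie near each other on chromosome 5. Cxcl2 (chr5:90903899-90905938) had 1955 and 1914 TPM at 1 hr, against 26.1 and 0.82 TPM at 0 hr (log2 change 8.11 ± 1.14, adjusted p = 0.00229). Its resting libraries stood far apart, and its log2 change was 10.05 without resting replicate 1 and 6.16 without resting replicate 2. Cxcl1 (chr5:90891245-90893115) had 331 and 319.8 TPM at 1 hr, against 1.21 and 0.134 TPM at 0 hr (log2 change 7.69 ± 0.26, adjusted p = 5.74e-07). Cxcl10, an attractant of CXCR3-bearing T cells, had 692 and 649.8 TPM at 1 hr, against 17.4 and 3.35 TPM at 0 hr, and its log2 change of 6.23 ± 0.62 was 7.27 without resting replicate 1 and 5.19 without resting replicate 2. Of 8 CXC chemokine genes tested, 6 rose, with a median log2 change of 2.49, and Cxcl9 and Cxcl14 did not pass.

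Cytokine genes that were low at rest were among the highest at 1 hr. Tnf, the gene for tumour necrosis factor (chr17:35199367-35202007), had 2234 and 2122 TPM at 1 hr, against 9.28 and 1.81 TPM at 0 hr (log2 change 8.66 ± 0.55, adjusted p = 8.15e-05), and its change was 9.60 without resting replicate 1 and 7.73 without resting replicate 2. Il1b, the interleukin-1 beta precursor (chr2:129364578-129371139), had 1582 and 1555 TPM at 1 hr, against 1.47 and 0.66 TPM at 0 hr (log2 change 9.60 ± 0.16, adjusted p = 5.37e-10). Tnfsf9, the ligand of the co-stimulatory receptor 4-1BB (chr17:57105385-57107757), had 1594 and 1521 TPM at 1 hr, against 2.96 and 1.54 TPM at 0 hr (log2 change 8.94 ± 0.18, adjusted p = 2.08e-09). In all 3 genes both 1 hr libraries lay far above both resting libraries, although some separation was required by the rule that named them.

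Several cytokines had so few resting reads that only a ratio with a wide counting interval can be given, and such intervals cover counting error only. Il1a had 192 and 193 TPM at 1 hr, against 0.106 and 0.128 TPM at 0 hr, a ratio of 1659-fold (95% counting interval 647 to 6089). Il12b, the p40 subunit of interleukin-12 and interleukin-23, had 34.9 and 32.4 TPM at 1 hr, against 0.042 and 0 TPM at 0 hr, a ratio of 1469.7-fold (95% counting interval 263 to 58088). Csf2, the gene for the growth factor GM-CSF, had 24.9 and 24.2 TPM at 1 hr and no read in either resting library, so it was at least 147-fold higher at 1 hr, counted against 3 reads over the resting group. Ifnb1, the gene for interferon-beta, had 49.4 and 45 TPM at 1 hr, against 0.271 and 0 TPM at 0 hr, a ratio of 317-fold (95% counting interval 87.5 to 2626) (adjusted p = 1.58e-08). Il6 had 5.96 and 5.34 TPM at 1 hr, against 0.092 and 0 TPM at 0 hr, a ratio of 112-fold (95% counting interval 19.7 to 4468), and was the lowest at 1 hr of these cytokines. Il10, an anti-inflammatory cytokine, had 48.4 and 55 TPM at 1 hr, against 2.72 and 0.971 TPM at 0 hr (log2 change 4.28 ± 0.26). Of 22 cytokine and growth factor genes tested, 17 rose (median log2 change 1.75), and of 4 genes of the interleukin-1 family 4 rose (median 5.27). Il1rn, the antagonist of the interleukin-1 receptor, had 111 and 105 TPM at 1 hr, against 21.8 and 6.09 TPM at 0 hr, with a log2 change of 3.10 ± 0.50 that was 3.94 without resting replicate 1 and 2.26 without resting replicate 2.

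**Figure D1:**
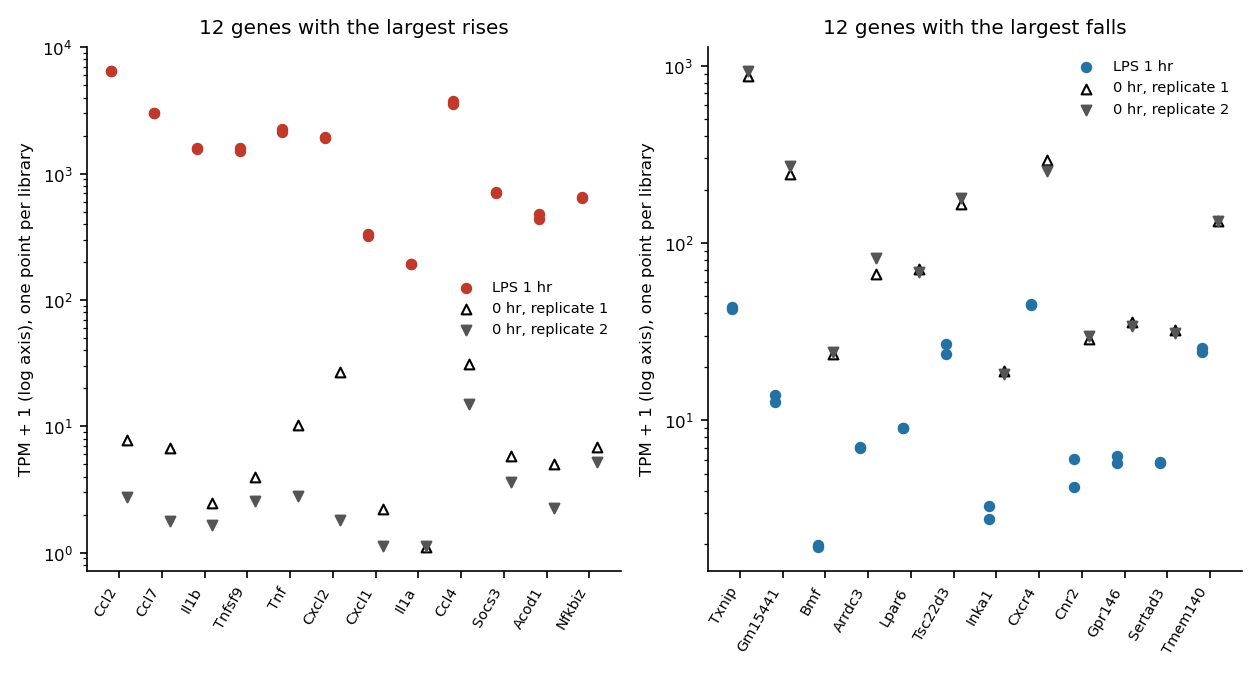
TPM + 1 (log axis) in each library for the 12 risen and the 12 fallen genes with the largest change at 10 TPM or more. Only genes whose groups did not overlap were eligible. The 1 hr libraries are left of the 0 hr libraries of each gene. Replicate 1 is an open triangle pointing up and replicate 2 a filled triangle pointing down; Cxcl2 had 1955 and 1914 TPM at 1 hr, against 26.1 and 0.82 TPM at 0 hr, the widest resting pair.

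Immediate early genes, many of them for transcription factors, rose in nearly all tested members. All 19 tested members of the list of EGR, NR4A, IER and related immediate early genes rose (median log2 change 2.17), and 10 of 12 AP-1 and ATF genes rose (median 1.86). Egr2 had 109 and 107 TPM at 1 hr, against 1.16 and 0.826 TPM at 0 hr (log2 change 5.78 ± 0.13). Myc, a regulator of growth, had 71.9 and 69.9 TPM at 1 hr, against 0.781 and 0.211 TPM at 0 hr (log2 change 5.61 ± 0.19). Csrnp1, a nuclear protein of the immediate early class, had 213 and 207 TPM at 1 hr, against 5.62 and 2.44 TPM at 0 hr. Maff, a small MAF protein without an activation domain, had 107 and 114 TPM at 1 hr, against 0.943 and 0.539 TPM at 0 hr (log2 change 6.01 ± 0.18), the highest change among the AP-1 and ATF genes. Fos, the founding member of AP-1, had 23 and 21.6 TPM at 1 hr, against 6.12 and 2.34 TPM at 0 hr (log2 change 2.26 ± 0.31), while Junb had 869.6 and 949 TPM at 1 hr, against 72.2 and 49.4 TPM at 0 hr (log2 change 3.90 ± 0.37) and Atf3, a repressor of many inflammatory genes, 789 and 779 TPM at 1 hr, against 119.5 and 93.8 TPM at 0 hr (log2 change 2.88 ± 0.11). Mafg and Mafk did not pass, with log2 changes of 0.31 and 0.08.

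Genes that restrain the signal rose alongside those that carry it. All 11 NF-kB subunit and IkB genes tested rose (median log2 change 2.0). Nfkbia, the gene for IkB-alpha that holds NF-kB in the cytoplasm (chr12:55489409-55492647), had 1556 and 1544 TPM at 1 hr, against 73 and 42.9 TPM at 0 hr (log2 change 4.77 ± 0.20, adjusted p = 6.43e-07). Nfkbiz, a nuclear IkB protein that activates some secondary genes, had 651 and 639.9 TPM at 1 hr, against 5.83 and 4.19 TPM at 0 hr (log2 change 6.76 ± 0.13). Nfkbie had a log2 change of 4.85 and Nfkbid one of 3.04. Among the subunits, Rel had 84.5 and 88 TPM at 1 hr, against 15.4 and 16.7 TPM at 0 hr (log2 change 2.36 ± 0.17), and Relb, Nfkb2, Rela and Nfkb1 had log2 changes of 1.73, 1.49, 0.88 and 0.50. In Nfkbia, Nfkbiz and Rel the 1 hr and 0 hr libraries did not overlap. Over all genes tested, both 1 hr libraries lay above both resting libraries in 26.9%.

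Of 12 genes for NF-kB feedback and ubiquitin editing, 10 rose (median log2 change 1.90). Tnfaip3, which encodes the ubiquitin-editing enzyme A20, had 516 and 496 TPM at 1 hr, against 9.45 and 5.08 TPM at 0 hr (log2 change 5.99 ± 0.23). Tnip3, a partner of A20, had 350.0 and 342 TPM at 1 hr, against 16.3 and 12.1 TPM at 0 hr. Tnip2 and Cyld, another deubiquitinase, did not pass, with log2 changes of -0.03 and -0.33. Socs3, an inhibitor of cytokine receptor signalling, had 704 and 714 TPM at 1 hr, against 4.77 and 2.60 TPM at 0 hr (log2 change 7.28 ± 0.18). Zfp36, the mRNA decay factor tristetraprolin, had 931 and 896 TPM at 1 hr, against 102 and 83.2 TPM at 0 hr (log2 change 3.30 ± 0.11), whereas its relative Zfp36l2 fell, with 16.5 and 19.3 TPM at 1 hr, against 95.6 and 95.6 TPM at 0 hr (log2 change -2.36 ± 0.25). Il6ra, a subunit of the interleukin-6 receptor, fell to 38.8 and 37.4 TPM at 1 hr, against 84 and 91.1 TPM at 0 hr.

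The dual-specificity phosphatases, which inactivate MAP kinases, rose in most members: 12 of 14 phosphatase, Sprouty and Spred genes tested rose (median log2 change 2.63). Dusp1 had 714 and 715 TPM at 1 hr, against 17 and 7.04 TPM at 0 hr (log2 change 5.89 ± 0.33), and Dusp2 had 119 and 118 TPM at 1 hr, against 1.67 and 1.02 TPM at 0 hr (log2 change 5.68 ± 0.15). Dusp4 had 112 and 123 TPM at 1 hr, against 4.67 and 0.365 TPM at 0 hr, and its log2 change of 5.41 ± 0.68 was 6.44 without resting replicate 1 and 4.38 without resting replicate 2. Dusp5 had 103 and 108 TPM at 1 hr, against 4.02 and 0.767 TPM at 0 hr, and its log2 change of 5.16 ± 0.43 was 5.91 and 4.41 in the same order. All 4 genes were above 100 TPM in both 1 hr libraries. Dusp16 had 34.5 and 35.1 TPM at 1 hr, against 3.64 and 2.59 TPM at 0 hr, and Dusp3 and Dusp10 did not pass.

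On the receptor side of the pathway, 11 of 32 TLR4 receptor and adaptor genes rose and 6 fell, beside 13.6% risen and 20.3% fallen over all genes, so the share of falls was near that of all genes. The list had a median log2 change of -0.02 as deposited and 0.13 after scaling, and 7 members rose without resting replicate 2 and 7 without replicate 1 at 1 hr. On deposited TPM alone 11 fell. Cd14, the co-receptor, had 1766 and 1696 TPM at 1 hr, against 266 and 235 TPM at 0 hr (log2 change 2.79 ± 0.09), and Tlr2, a receptor for bacterial lipoproteins, 470.0 and 447 TPM at 1 hr, against 72.5 and 61.7 TPM at 0 hr (log2 change 2.76 ± 0.09). Ticam1, which encodes TRIF, had 49.9 and 49.7 TPM at 1 hr, against 20.8 and 18.1 TPM at 0 hr. Irak2, a kinase below MYD88, had 60.8 and 59.2 TPM at 1 hr, against 14 and 12 TPM at 0 hr. Tlr4 itself did not pass on both scalings (log2 change -0.41 ± 0.13, adjusted p = 0.0265). Tlr9, a sensor of bacterial DNA, fell to 4.10 and 4.60 TPM at 1 hr, against 8.71 and 10.1 TPM at 0 hr, and Tab1, an activator of the kinase TAK1, to 8.64 and 7.72 TPM at 1 hr, against 17 and 17.3 TPM at 0 hr.

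Surface molecules of activated macrophages rose in 16 of 19 tested members (median log2 change 2.89). Cd40, the receptor for CD40 ligand of T cells, had 166 and 154 TPM at 1 hr, against 2.43 and 0.984 TPM at 0 hr (log2 change 5.94 ± 0.24), and Cd83 had 1024 and 1052 TPM at 1 hr, against 29 and 24.3 TPM at 0 hr (log2 change 5.24 ± 0.11). Sdc4, a cell-surface proteoglycan, had 1805 and 1791 TPM at 1 hr, against 98.3 and 89 TPM at 0 hr. Plaur, the urokinase receptor, had 290.0 and 281 TPM at 1 hr, against 18.3 and 13.2 TPM at 0 hr. Ccrl2, a non-signalling chemokine receptor, had 471 and 439 TPM at 1 hr, against 8.91 and 6.96 TPM at 0 hr. The fungal glucan receptor Clec7a went the other way, with 33.6 and 38.4 TPM at 1 hr, against 61 and 66.7 TPM at 0 hr (log2 change -0.81 ± 0.12), and Cd86 did not pass (log2 change -0.04).

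Of 19 tested receptors for small ligands, 9 rose and 6 fell, beside 13.6% and 20.3% over all genes. Gpr84, a receptor for medium-chain fatty acids, had 80.9 and 78 TPM at 1 hr, against 1.88 and 1.14 TPM at 0 hr (log2 change 5.02 ± 0.15), and Adora2b, an adenosine receptor, 25.3 and 23.2 TPM at 1 hr, against 1.35 and 0.892 TPM at 0 hr (log2 change 3.58 ± 0.17). The chemokine receptor Cxcr4, which retains cells in the marrow, fell to 43.8 and 44.4 TPM at 1 hr, against 293 and 252 TPM at 0 hr (log2 change -2.60 ± 0.13, adjusted p = 1.56e-07). P2rx7, the ATP-gated channel that triggers the inflammasome, had 20.8 and 21.5 TPM at 1 hr, against 48.1 and 47.6 TPM at 0 hr (log2 change -1.14 ± 0.14).

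Inflammasome and survival genes rose in 12 of 19 tested members (median log2 change 1.35). Nlrp3, the sensor of the best-known inflammasome, had 399 and 394 TPM at 1 hr, against 29.995 and 29.6 TPM at 0 hr (log2 change 3.69 ± 0.09), while Pycard and Gsdmd, its adaptor and its pore-forming effector, did not pass (log2 changes 0.13 and -0.30). The anti-apoptotic gene Bcl2l1 had 90.3 and 82.4 TPM at 1 hr, against 9.0 and 7.15 TPM at 0 hr and Cflar, an inhibitor of caspase-8, 196 and 191 TPM at 1 hr, against 21.1 and 19.2 TPM at 0 hr. The pro-apoptotic gene Bcl2l11, which encodes BIM, also rose, with 216 and 213 TPM at 1 hr, against 46.3 and 48.6 TPM at 0 hr. Bcl2a1d had 18.7 and 18.2 TPM at 1 hr, against 0.786 and 0.159 TPM at 0 hr, but its copies Bcl2a1a and Bcl2a1b are nearly identical and reads may be split among them.

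Of 35 interferon-response genes tested, 12 rose and 6 fell, beside 13.6% risen and 20.3% fallen over all genes, so falls were no more frequent than over all genes. The list had a median log2 change of -0.02 as deposited and 0.07 after scaling, and 3 members fell without resting replicate 1 and 3 without replicate 2 at 1 hr. On deposited TPM alone 10 fell. Gbp5, a guanylate-binding protein, had 63 and 61.5 TPM at 1 hr, against 4.38 and 4.24 TPM at 0 hr (log2 change 3.57 ± 0.09). Isg15, a ubiquitin-like protein, had 127 and 111 TPM at 1 hr, against 23.9 and 19.3 TPM at 0 hr (log2 change 2.42 ± 0.13), and Oasl1 had 29.4 and 26.1 TPM at 1 hr, against 4.32 and 2.09 TPM at 0 hr. Ifit3, a member of the IFIT antiviral family, fell to 3.62 and 3.71 TPM at 1 hr, against 8.69 and 6.71 TPM at 0 hr, and Oas2 to 16.9 and 16.8 TPM at 1 hr, against 32 and 28.6 TPM at 0 hr. At 4 hr, all 35 were higher than at 1 hr in the test of those groups, in which 2083 genes (17.7%) rose and 3803 (32.2%) fell over all genes tested. That test shares the 1 hr libraries with the main comparison, and its median log2 change over all genes was -0.48 as deposited and -0.0047 after scaling. Ifit3 then had 425 and 399.8 TPM and Isg15 2666 and 2656 TPM.

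Of 17 tested IRF, STAT and interferon genes, 7 rose and 4 fell, the falls at a share near the 20.3% over all genes. Irf1, a factor for both interferon and inflammatory genes, had 653 and 638 TPM at 1 hr, against 68.4 and 57 TPM at 0 hr (log2 change 3.35 ± 0.09). Irf8, a lineage factor of monocytes, had 40.2 and 40.8 TPM at 1 hr, against 117 and 119.5 TPM at 0 hr (log2 change -1.53 ± 0.08, adjusted p = 2.75e-07). Stat2, a component of the interferon-activated complex ISGF3, had 11.6 and 10.7 TPM at 1 hr, against 31.3 and 31.1 TPM at 0 hr (log2 change -1.41 ± 0.09). At 4 hr, Stat2 had 302 and 286 TPM and Irf8 139 and 150.2 TPM. Each of these 3 genes had 1 hr libraries outside the range of its resting libraries. Both 1 hr libraries lay above both resting libraries in 26.9% of all genes tested, and no share is given here for falls.

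Among 18 genes of the late inflammatory list, 12 had risen by 1 hr (median log2 change 1.23). Clec4e, a receptor for mycobacterial glycolipid, had 684 and 672 TPM at 1 hr, against 47.6 and 34 TPM at 0 hr (log2 change 4.04 ± 0.13). Mmp13, a collagenase, had 160.3 and 170.0 TPM at 1 hr, against 17 and 12.1 TPM at 0 hr. Nos2, which makes nitric oxide, was under 1 TPM in all 4 libraries and did not pass, with 0.03 and 0.275 TPM at 1 hr and 0.082 and 0.1 TPM at 0 hr (adjusted p = 0.642), and had 704 and 700.2 TPM at 4 hr. Acod1, which makes the antimicrobial metabolite itaconate, had 480.0 and 439 TPM at 1 hr, against 4.02 and 1.27 TPM at 0 hr (log2 change 7.09 ± 0.33) and 5132 and 4755 TPM at 4 hr. Ptgs2, the inducible cyclooxygenase, had 31.9 and 31 TPM at 1 hr, against 0.21 and 0.028 TPM at 0 hr (log2 change 4.86 ± 0.17) and 709 and 613 TPM at 4 hr. Ptgs1, the constitutive cyclooxygenase, fell to 8.51 and 8.74 TPM at 1 hr, against 17.1 and 11.8 TPM at 0 hr, a call that was lost without resting replicate 1 and without either 1 hr replicate.

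**Figure D2:**
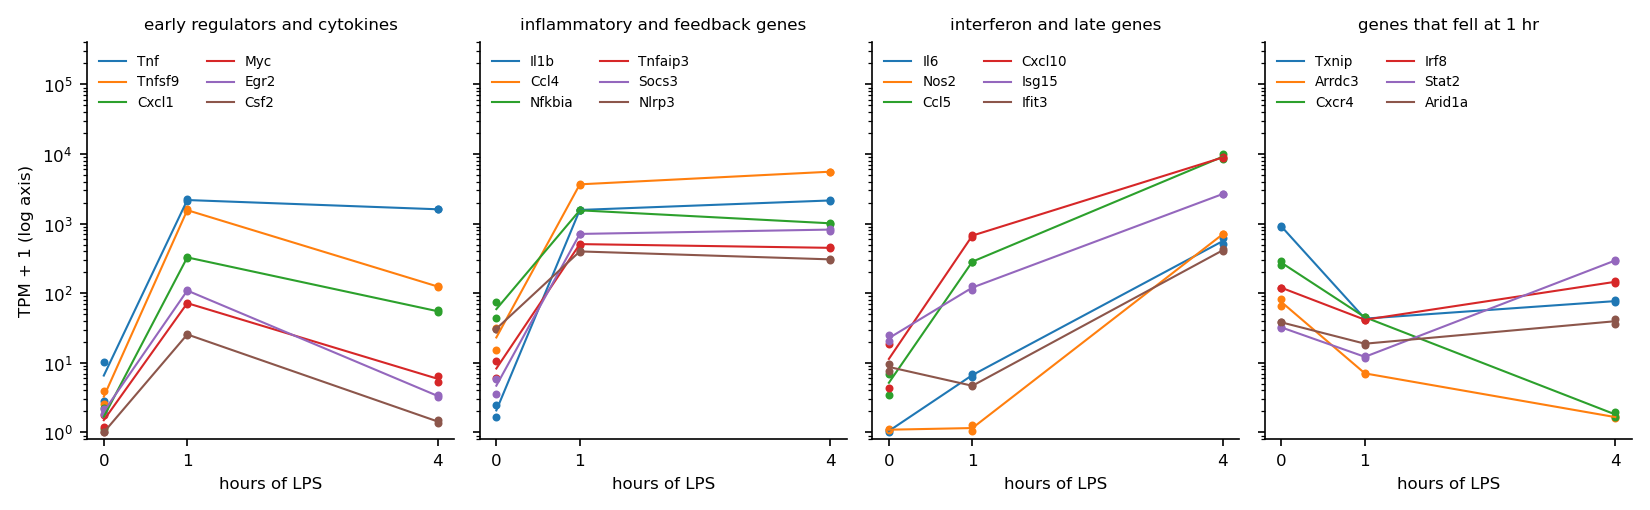
TPM + 1 (log axis) at 0, 1 and 4 hr of LPS in Arid1a f/f macrophages, with a point for each library and a line through the group means. Tnfsf9, Egr2 and Csf2 peaked at 1 hr in these 3 times, Nos2 and Il6 were highest at 4 hr, and Stat2, Irf8 and Arid1a had their lowest means at 1 hr.

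The 3 times can be set side by side for the most induced genes. Tnfsf9 had 2.96 and 1.54 TPM at 0 hr, 1594 and 1521 TPM at 1 hr and 126 and 121 TPM at 4 hr. Csf2 had 0 and 0 TPM at 0 hr, 24.9 and 24.2 TPM at 1 hr and 0.514 and 0.35 TPM at 4 hr. Ifnb1 had 0.271 and 0 TPM at 0 hr, 49.4 and 45 TPM at 1 hr and 5.50 and 3.75 TPM at 4 hr. These 3 genes were transient at this sampling, and all 3 were lower at 4 hr than at 1 hr in the test. Il1b, with 2199 and 2097 TPM at 4 hr, stayed high, and Il6 had 5.96 and 5.34 TPM at 1 hr and 614 and 505 TPM at 4 hr (log2 change of 4 hr over 1 hr 6.39 ± 0.11). The list of immediate early genes held 14 of 19 members lower at 4 hr than at 1 hr, beside 32.2% lower over all genes tested.

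The fallen genes were led by Txnip, an arrestin-domain protein that restrains glucose uptake and is a target of the transcription factors MondoA and FOXO. Txnip (chr3:96557957-96561857) had 41.6 and 42.5 TPM at 1 hr, against 879 and 934 TPM at 0 hr (log2 change -4.40 ± 0.08, adjusted p = 2.3e-10). Gm15441, whose exons overlap those of Txnip, had 11.7 and 12.9 TPM at 1 hr, against 245 and 272 TPM at 0 hr, and reads of the pair cannot be told apart where they overlap, since counting used both strands. Arrdc3, another arrestin-domain protein, had 6.10 and 5.96 TPM at 1 hr, against 65.4 and 81.6 TPM at 0 hr (log2 change -3.40 ± 0.16). Bmf, a pro-apoptotic gene that FOXO3 activates, had 0.924 and 0.982 TPM at 1 hr, against 22.7 and 23.2 TPM at 0 hr (log2 change -3.62 ± 0.12). Tsc22d3, the glucocorticoid-induced leucine zipper, had 25.9 and 22.5 TPM at 1 hr, against 164 and 179 TPM at 0 hr (log2 change -2.77 ± 0.13). In these genes both 1 hr libraries lay far below both resting libraries, although some separation was required of the lowest changes named.

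Of 21 FOXO-target, arrestin-domain and growth-restraint genes, 14 fell and 3 rose, with a median log2 change of -1.04 as deposited and -0.88 after scaling, against 20.3% fallen over all genes. Foxo3 and Foxo1 themselves had log2 changes of -1.63 and -1.04, and Cdkn1b, the cell cycle inhibitor p27, one of -1.52. Pik3ip1, an inhibitor of PI3 kinase, had a log2 change of -1.82. The 3 that rose were Irs2, an adaptor of the insulin receptor, with 13.9 and 15.1 TPM at 1 hr, against 1.68 and 1.26 TPM at 0 hr, Cited2, with 258 and 282 TPM at 1 hr, against 50.5 and 49.3 TPM at 0 hr, and Btg1, with 63.3 and 66.9 TPM at 1 hr, against 30.7 and 27 TPM at 0 hr. Irs2 and Btg1 are known FOXO targets as well.

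Several further genes among the 12 with the lowest change encode receptors or regulators. Lpar6, a lysophosphatidic acid receptor, had 8.09 and 8.08 TPM at 1 hr, against 70.3 and 67.3 TPM at 0 hr (log2 change -2.94 ± 0.13). Its exons overlap the host gene Rb1, which did not pass (log2 change 0.10). Cnr2, the cannabinoid receptor of immune cells, had 5.02 and 3.21 TPM at 1 hr, against 27.8 and 28.9 TPM at 0 hr (log2 change -2.54 ± 0.19), and Gpr146 had 4.76 and 5.30 TPM at 1 hr, against 34.9 and 33.2 TPM at 0 hr. Sertad3 had 4.85 and 4.75 TPM at 1 hr, against 31.1 and 30.1 TPM at 0 hr, Inka1, an inhibitor of the kinase PAK4, 2.28 and 1.78 TPM at 1 hr, against 17.9 and 17.2 TPM at 0 hr, and Tmem140 24.7 and 23.2 TPM at 1 hr, against 133 and 132 TPM at 0 hr. Both libraries at 1 hr were below both at 0 hr in each of these genes, as the rule that chose the 12 required. By 4 hr, Tmem140 had 128 and 122 TPM and Sertad3 45.9 and 45.4 TPM, while Lpar6 had 1.12 and 1.70 TPM and Cnr2 0.27 and 0.246 TPM.

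**Figure D3:**
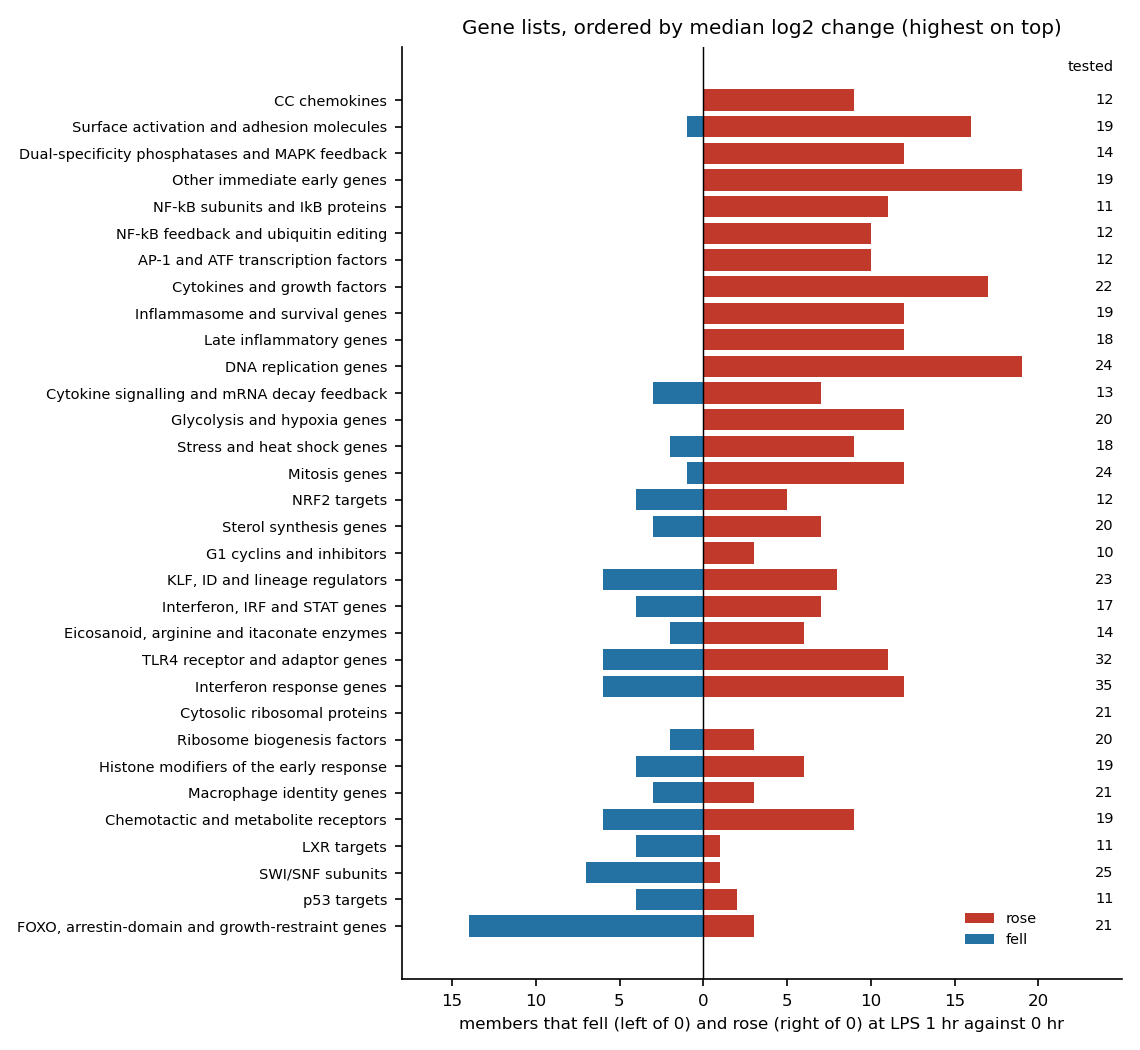
Number of members that rose (bars to the right) or fell (bars to the left) at 1 hr relative to 0 hr, for each list with at least 10 tested genes, ordered by the median log2 change, with the number tested at the right. CC chemokines (9 of 12 risen) are at one end, with immediate early genes (19 of 19) and NF-kB and IkB genes (11 of 11) near it. FOXO, arrestin-domain and growth-restraint genes (14 of 21 fallen) are at the other end.

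Of 23 KLF, ID and lineage genes, 8 rose and 6 fell, the falls at a share near the 20.3% over all genes. The inhibitor of DNA binding Id2 had 446 and 446 TPM at 1 hr, against 42.7 and 34.2 TPM at 0 hr (log2 change 3.51 ± 0.10), and Id3 had 82.2 and 69.7 TPM at 1 hr, against 7.01 and 4.53 TPM at 0 hr. Ets2 had 115 and 113 TPM at 1 hr, against 4.80 and 2.35 TPM at 0 hr (log2 change 4.71 ± 0.21). Cebpa, a myeloid lineage factor, fell to 16.5 and 17.2 TPM at 1 hr, against 55.8 and 53.8 TPM at 0 hr (log2 change -1.64 ± 0.15), and Hhex, a homeobox factor, to 5.06 and 6.09 TPM at 1 hr, against 30.6 and 33.8 TPM at 0 hr. Spi1, which encodes the macrophage master factor PU.1, did not pass (log2 change -0.01).

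Markers of macrophages were high in all 4 libraries, as the BMDM label says. Lyz2, lysozyme, had 15882 and 15770.0 TPM at 1 hr, against 18457 and 19020.0 TPM at 0 hr, and Adgre1, which encodes F4/80, 641 and 632 TPM at 1 hr, against 816 and 844 TPM at 0 hr. Neither passed on both scalings. Of 21 macrophage identity genes, 3 rose and 3 fell, with 1 fallen when either 1 hr replicate was left out and 8 fallen on deposited TPM alone. Csf1r, the receptor for the growth factor CSF1, had 781 and 780.0 TPM at 1 hr, against 1266 and 1309 TPM at 0 hr (log2 change -0.72 ± 0.08), and Msr1, a scavenger receptor, 241 and 235 TPM at 1 hr, against 91.1 and 88.6 TPM at 0 hr (log2 change 1.39 ± 0.15).

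Markers of other cells were low, and some moved with LPS. The summed level of the 10 granulocyte markers was 24.2 and 25.01 TPM at 1 hr, against 8.35 and 10.6 TPM at 0 hr, with Ly6g at 0 in all 4 libraries. Of the 4 tested, 3 rose, against 1 or 2 when any library was left out. S100a8 had 13.3 and 10.5 TPM at 1 hr, against 2.95 and 4.89 TPM at 0 hr, a call lost without replicate 1 of either group. The 9 dendritic cell markers summed to 67.5 and 67.4 TPM at 1 hr, against 32.0 and 33.4 TPM at 0 hr, of which Itgax, an integrin that macrophages also express, made up 65.1 and 64.2 TPM at 1 hr and 27.6 and 27.6 TPM at 0 hr, and Flt3 was at 0. Lymphocyte markers summed to 4.91 and 5.82 TPM at 1 hr, against 7.29 and 7.25 TPM at 0 hr, and Cd3e, Cd8a, Cd79a, Ms4a1 and Ncr1 were at 0 in all 4 libraries. Erythroid and mast cell markers summed to 0.428 and 0.390 TPM at 1 hr, against 0.467 and 0.310 TPM at 0 hr, and stromal markers to 0.729 and 0.659 TPM at 1 hr, against 0.763 and 0.735 TPM at 0 hr. In bulk samples, more cells of a type and more RNA per cell cannot be told apart.

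Arid1a, the gene floxed in these cells, was lower at 1 hr, with 18.3 and 17.3 TPM at 1 hr, against 37.2 and 36.9 TPM at 0 hr (log2 change -1.02 ± 0.21, adjusted p = 0.00456). At 4 hr the level was 35.2 and 41.9 TPM. Of 25 SWI/SNF subunit genes tested, 7 fell and 1 rose, against 20.3% and 13.6% over all genes, and leaving out any 1 of the 4 libraries left 3 or 4 fallen. Bicra, a subunit of the ncBAF form, had 2.27 and 2.34 TPM at 1 hr, against 9.94 and 10.5 TPM at 0 hr (log2 change -1.76 ± 0.25). The riser was Actb, beta-actin, which is mainly cytoskeletal, with 1582 and 1616 TPM at 1 hr, against 1105 and 1054 TPM at 0 hr. Smarca4, the ATPase BRG1, did not pass (log2 change -0.24 ± 0.10).

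Of 19 histone modifiers, 6 rose and 4 fell, beside 13.6% risen and 20.3% fallen over all genes, so the share of falls was near that of all genes. Kdm6b, a demethylase of histone H3 lysine 27 whose exons overlap its antisense gene Kdm6bos, had 41.7 and 44 TPM at 1 hr, against 2.87 and 2.19 TPM at 0 hr (log2 change 3.64 ± 0.20). Ep300, the acetyltransferase p300, fell to 12.1 and 12.1 TPM at 1 hr, against 33.1 and 32.7 TPM at 0 hr (log2 change -1.37 ± 0.27), and Kdm5b, a demethylase of histone H3 lysine 4, to 1.64 and 2.11 TPM at 1 hr, against 6.69 and 8.25 TPM at 0 hr.

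Metabolic genes had smaller changes. Of 20 glycolysis and hypoxia genes, 12 rose (median log2 change 0.39). Slc2a6, a glucose transporter family member of lysosomes, had 170.2 and 169 TPM at 1 hr, against 32.4 and 23.7 TPM at 0 hr (log2 change 2.57 ± 0.12), Slc2a1, the main glucose transporter, 46 and 47.5 TPM at 1 hr, against 19.6 and 14 TPM at 0 hr, and Pfkfb3, which raises glycolytic flux, 19 and 20.5 TPM at 1 hr, against 8.35 and 8.14 TPM at 0 hr. Gapdh did not pass (log2 change 0.08), but it had only 0.634 and 0.907 TPM at 1 hr, against 0.738 and 0.599 TPM at 0 hr. At that level its change cannot be read as that of a stable, abundant mRNA. Of 20 sterol synthesis genes, 7 rose and 3 fell, with 0 to 2 fallen when a library was left out. Insig1, which holds back the sterol sensor SCAP, had 98.7 and 97.4 TPM at 1 hr, against 29.9 and 27.9 TPM at 0 hr (log2 change 1.73 ± 0.11). Of 11 LXR targets, 4 fell and 1, Nr1h3, rose, a call lost without resting replicate 2 or replicate 1 at 1 hr. Abcg1, a cholesterol exporter, had 14.8 and 14.5 TPM at 1 hr, against 39.1 and 38.1 TPM at 0 hr (log2 change -1.34 ± 0.10), whereas the exporter Abca1 did not pass (log2 change -0.09).

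Stress-response genes were mixed. Of 12 NRF2 targets, 5 rose and 4 fell: Txnrd1, thioredoxin reductase, had 156 and 150.4 TPM at 1 hr, against 66.6 and 52.4 TPM at 0 hr, and Osgin1 had 5.82 and 5.46 TPM at 1 hr, against 24.3 and 16.4 TPM at 0 hr. Of 18 stress and heat shock genes, 9 rose and 2 fell, with 1 fallen when any library was left out. Ppp1r15a, which brings back translation after stress, had 152 and 149 TPM at 1 hr, against 21.4 and 17.2 TPM at 0 hr (log2 change 2.90 ± 0.11), Atf4 280.0 and 273 TPM at 1 hr, against 141 and 95.3 TPM at 0 hr, and Ddit3, which encodes CHOP, 17.2 and 18 TPM at 1 hr, against 37.2 and 33.8 TPM at 0 hr (log2 change -0.97 ± 0.15). Of 11 p53 targets, 2 rose and 4 fell: Mdm2, the inhibitor of p53, had 305 and 295 TPM at 1 hr, against 84.9 and 55.5 TPM at 0 hr, and Sesn2 had 10.3 and 8.88 TPM at 1 hr, against 24.2 and 26.4 TPM at 0 hr. The 21 cytosolic ribosomal protein genes had a median log2 change of -0.02 as deposited and 0.11 after scaling, and a range of -0.37 to 0.24. The member at the low end had only 0.764 and 0.619 TPM at 1 hr, against 1.08 and 1.31 TPM at 0 hr. Of 20 ribosome biogenesis factors, 3 rose and 2 fell, and both falls were lost when any library was left out. Rrs1 had 23 and 21.5 TPM at 1 hr, against 4.57 and 4.69 TPM at 0 hr (log2 change 2.05 ± 0.12).

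Genes of DNA replication rose together by a modest amount. Of 24 tested, 19 rose (median log2 change 0.76 as deposited and 0.88 after scaling, range -0.01 to 1.22), and 19 rose when either resting replicate was left out. Rrm2, a subunit of ribonucleotide reductase, had 26.8 and 23.2 TPM at 1 hr, against 10.2 and 10.1 TPM at 0 hr (log2 change 1.22 ± 0.13, adjusted p = 3.63e-05). Pcna, the sliding clamp of DNA polymerase, had 107 and 114 TPM at 1 hr, against 44.9 and 51.5 TPM at 0 hr (log2 change 1.18 ± 0.12). Mcm5, part of the replicative helicase, had 38 and 38.6 TPM at 1 hr, against 19 and 17 TPM at 0 hr (log2 change 1.05 ± 0.11), and Lig1, DNA ligase, 32.4 and 31.7 TPM at 1 hr, against 15.5 and 15.5 TPM at 0 hr (log2 change 1.00 ± 0.09). The groups did not overlap in 21 of the 24 genes, with the 1 hr libraries above, against 26.9% of all genes tested. E2f1, Cdt1, Cdc6 and Fen1 did not pass, with log2 changes of -0.01, -0.01, 0.13 and 0.22, nor did Gins1 (0.68).

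Genes of mitosis had a lower median. Of 24 tested, 12 rose and 1 fell (median log2 change 0.30 as deposited and 0.44 after scaling), and 6 to 8 rose when any library was left out. Cdk1, the mitotic kinase, had 51.1 and 50.6 TPM at 1 hr, against 29.6 and 32.4 TPM at 0 hr (log2 change 0.70 ± 0.11), and Ccnf, a cyclin with an F-box, 18.6 and 18.7 TPM at 1 hr, against 29.4 and 25.5 TPM at 0 hr, and the call of Ccnf was lost without resting replicate 1 and without either 1 hr replicate. Mki67, the proliferation antigen Ki-67, had 115 and 117 TPM at 1 hr, against 72 and 73.4 TPM at 0 hr (log2 change 0.67 ± 0.17), lost without resting replicate 1 and without replicate 2 at 1 hr. Of 10 G1 cyclins and inhibitors tested, 3 rose and 7 did not pass (median log2 change 0.09 as deposited and 0.24 after scaling). Ccnd1, cyclin D1, had 21.6 and 17 TPM at 1 hr, against 4.05 and 3.66 TPM at 0 hr (log2 change 2.06 ± 0.11), and Cdkn1a, the cell cycle inhibitor p21, 1065 and 1016 TPM at 1 hr, against 271 and 244 TPM at 0 hr (log2 change 2.01 ± 0.09). At 4 hr, 21 of the 24 replication genes and 23 of the 24 mitosis genes were lower than at 1 hr, beside 32.2% over all genes tested, with Rrm2 at 1.40 and 1.93 TPM.

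Genes with the largest changes in either direction had short spans in the median. The median genomic span was 18378 bases for risen genes, 10547 for those that rose by at least 2 and 3690 for those that rose by at least 5 on the log2 scale, against 19946 bases over the 11498 tested genes with at least 200 bases of exon. Fallen genes had a median span of 17607 bases, those that fell by at least 1 had one of 12576 bases, and the 32 that fell by at least 2 one of 5351.5 bases. Of 1652 genes spanning under 5 kb, 64 rose by at least 2, and of 1026 genes spanning over 100 kb, 2 did. Among genes over 100 kb, 10.9% rose and 6.82% fell. The median number of exons was 4 for genes up by at least 5, 5 for those up by at least 2 and 3.5 for those down by at least 2, against 9 over all tested genes. These spans are a description, and transcript length and span were not separated.

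The same hour was measured with lipid A in 2 other experiments, whose tables were normalised separately, so values are set side by side without a test between them. At 1 hr of lipid A in experiment 1, 1141 of 11531 genes rose (9.9%) and 2227 fell (19.3%), and at 60 min in experiment 4, 863 of 11549 rose (7.47%) and 2060 fell (17.8%). Of genes tested in both, 804 rose with LPS and in experiment 1, which is 53.8% of those risen with LPS and 73.8% of those risen in experiment 1. For experiment 4 the shared number was 657, which is 43.8% of those risen with LPS and 78.7% of those risen in experiment 4. Genes that fell in both numbered 1390 for experiment 1 (61.0% and 65.0%) and 1301 for experiment 4 (55.3% and 64.6%). Of 229 genes that rose by at least 2 with LPS and were tested in all 3 experiments, 213 rose in both lipid A experiments.

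Cytokine levels after the first hour can be set side by side. Ifnb1 had 49.4 and 45 TPM with LPS, 434 and 478 TPM with lipid A in experiment 1 and 988 and 688 TPM in experiment 4, and all resting libraries were at or below 1.04 TPM. Il6 had 5.96 and 5.34 TPM at 1 hr of LPS and 63.2 and 64.5 TPM at 1 hr of lipid A in experiment 1. Tnf had 2234 and 2122 TPM with LPS, 3420.4 and 3956 TPM in experiment 1 and 5672 and 5684 TPM in experiment 4. Log2 changes were not all lower with LPS. Ifnb1 had 5.42 with LPS, 8.18 in experiment 1 and 9.40 in experiment 4, and Il6 had 2.67, 5.80 and 5.38. In the same order, Tnf had 8.66, 7.93 and 8.25, Il1b 9.60, 8.99 and 7.80, and Ccl2 10.46, 6.56 and 5.93. Txnip had 41.6 and 42.5 TPM at 1 hr, against 879 and 934 TPM at 0 hr, with 14.8 and 11.5 TPM at 1 hr and 632 and 601 TPM at 0 hr of lipid A in experiment 1. In experiment 4, Txnip had 34.8 and 32.8 TPM at 60 min and 760.5 and 692 TPM at 0 min.

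**Figure D4:**
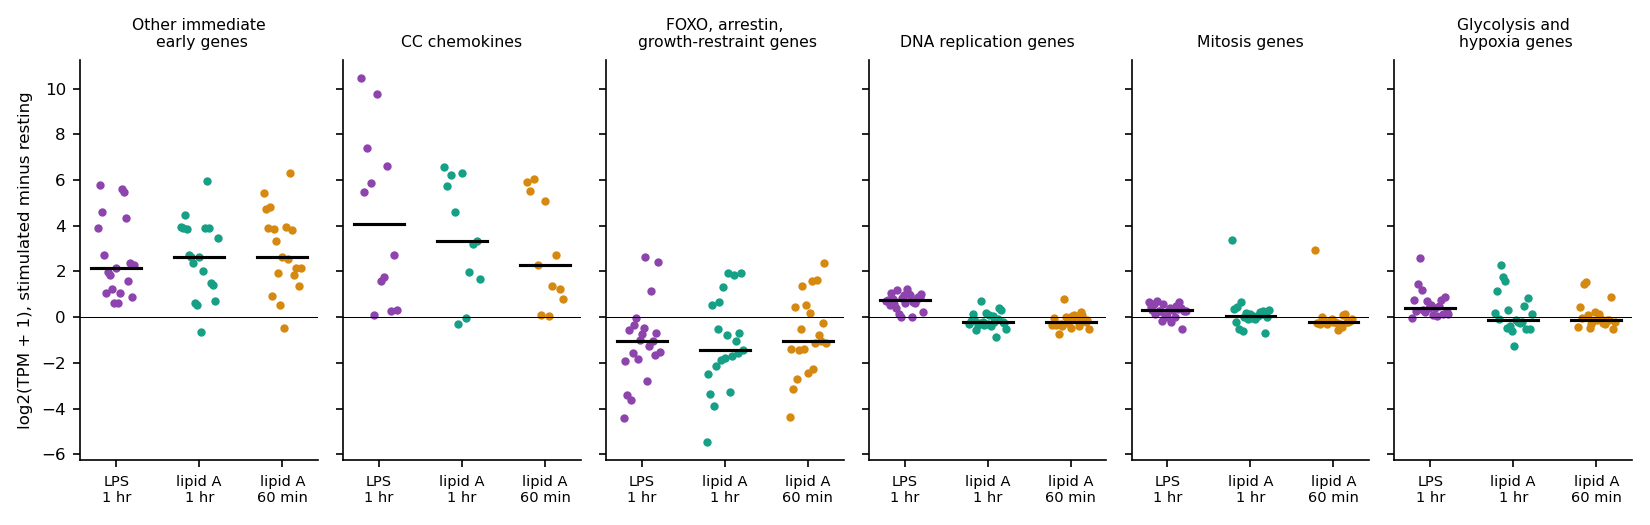
Log2 change of each member of 6 gene lists (points, with a bar at the median) after LPS for 1 hr, lipid A for 1 hr in experiment 1 and lipid A for 60 min in experiment 4, each table normalised separately. DNA replication genes had a median of 0.76 with LPS, -0.22 in experiment 1 and -0.21 in experiment 4 (0.19 and 0.06 in the lipid A experiments after scaling), while immediate early genes were high in all 3.

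Replication genes can be set side by side in the same way. With lipid A, 1 of 23 rose and 1 fell in each experiment, with medians of -0.22 in experiment 1 and -0.21 in experiment 4 (0.19 and 0.06 after scaling), beside 19 of 24 risen with LPS (median 0.76). Mcm6, part of the replicative helicase, had 48.9 and 46.3 TPM at 1 hr, against 27.8 and 26.9 TPM at 0 hr with LPS (log2 change 0.78 ± 0.08), and log2 changes of -0.56 in experiment 1 and -0.74 in experiment 4. Pcna rose in all 3 experiments (log2 changes 1.18, 0.71 and 0.78). Mki67 rose by 0.67 with LPS, with 116 and 109 TPM at 1 hr and 10.5 and 9.25 TPM at 0 hr of lipid A in experiment 1, a log2 change of 3.39. The ligand, the genotype and the experiment differ at once between these comparisons and cannot be told apart. The FOXO and arrestin-domain list had 14 of 21 members fallen and 3 risen with LPS, 12 fallen and 6 risen in experiment 1, and 11 fallen and 6 risen in experiment 4.

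Cells labelled Arid1a-/- were measured at 1 hr but not, in the data used here, at rest, and that contrast shares the 1 hr f/f libraries with the main one. Arid1a itself had 7.17 and 13.2 TPM in Arid1a-/- libraries, against 18.3 and 17.3 TPM in Arid1a f/f libraries at 1 hr (log2 change -0.80 ± 0.21, adjusted p = 0.0165). Both libraries labelled Arid1a-/- lay below both f/f libraries, but replicate 2 kept most of the f/f level, and the directions below rest on the label. In this contrast 2215 of 11798 genes were higher (18.8%) and 1983 lower (16.8%) in Arid1a-/- cells. The sum of these calls, 4198, was 2661 without replicate 1 and 2448 without replicate 2 of the 1 hr f/f cells. Il1b had 159 and 143 TPM in Arid1a-/- cells, against 1582 and 1555 TPM in Arid1a f/f cells (log2 change -3.37 ± 0.16), and Il12b 3.02 and 2.32 TPM, against 34.9 and 32.4 TPM (log2 change -3.24 ± 0.11). Tnf had 5185 and 4803 TPM in Arid1a-/- cells, against 2234 and 2122 TPM in Arid1a f/f cells, and did not pass (adjusted p = 0.144). Its spread in this fit is taken over all 10 libraries, including the resting ones at 9.28 and 1.81 TPM, so not passing does not show equal levels. Rrm2 had 69.8 and 62.1 TPM in Arid1a-/- cells, against 26.8 and 23.2 TPM in Arid1a f/f cells (log2 change 1.36 ± 0.13), and all 24 replication genes were higher in Arid1a-/- cells. Txnip, with 37.5 and 40.5 TPM in Arid1a-/- cells, against 41.6 and 42.5 TPM in Arid1a f/f cells, did not pass (adjusted p = 0.337).

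In the authors' deposited table of the same comparison, 2450 of 25124 listed genes were higher (9.75%) and 2482 lower (9.88%) at an adjusted p under 0.05. Of the listed genes, 9340 had no log2 change there, so these shares have another base than the shares of tested genes above. Of the 1607 genes called risen here, 1509 were higher in the authors' deposited table, and of the 2391 called fallen, 2085 were lower there, with 1 gene called in opposite directions. The authors' deposited table gave log2 changes of 8.79 for Tnf, 6.99 for Il6 and 8.49 for Ifnb1.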

How the data were processed

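Messenger RNA of bone marrow-derived macrophages was sequenced from a stranded mRNA kit, per the labels' protocols. Per the submitters' processing notes, STAR 2.5.3a, HOMER and DESeq2 were used, with builds mm10 and GRCm38. Per the file headers, the authors made the TPM with HOMER by counting exonic reads on both strands, with isoforms condensed to 1 per gene. The deposited TPM do not reach the full scale they are named for. They sum to 540982 and 539886 in the 0 hr libraries and 564050 and 564569 in the 1 hr libraries. A table by the authors of the comparison holds log2 fold changes and adjusted p-values, and was used only where it is named.

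Low TPM values multiplied by exon length were whole multiples of 1 read (within 0.1 read) in 100.0% of cases, which gave the depth of each library. Over the 4 libraries, totals in the file headers were 11642839 to 14058921. Testing was limited to the 11798 of 25124 listed genes that reached 1 TPM in 2 or more libraries. All 10 libraries of the LPS experiment (5 groups, 5 residual degrees of freedom) went into a single limma model (version 3.58.1, R 4.3.3). The response was log2(TPM + 1), and variances were moderated robustly along the mean trend. A count model was planned only for the case that tables held counts, and was not run. Replicates differed with an SD of 0.156 at 1 hr and 0.181 at 0 hr on the log2 scale. The fit was also run on simulated data with known changes. There, all genes had the same spread beyond counting, resting libraries were alike and only the 1 hr group changed. It therefore cannot give the error rate of the calls in these data.

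Experiments 1 and 4 were fitted in the same way in their own tables (11 and 18 libraries). In experiment 1, a column equal to another in all 24537 genes carries no sample of its own and was not used, 1 column in all. Genes were named by a rule: Arid1a, 10 inflammatory genes, the 12 highest and 12 lowest changes at 10 TPM or more, and up to 5 members of each list, plus up to 2 against its direction. The 12 highest and 12 lowest were taken only from risen or fallen genes whose groups did not overlap. Relb, Nfkb2, Rela, Nfkb1, Foxo1, Foxo3, Cdkn1b, Pik3ip1, Btg1 and Mcm6 were named outside it after their values were seen. The comparison, gene lists and tests were chosen with earlier results of these data known. Counting used both strands, so genes that share exon bases with a neighbour are less certain; among those named are Tnfsf9, Il1a, Csf2, Cxcl10, Junb, Irf1, Cebpa, Ccnd1, Gpr84 and Zfp36. Alternatives were a pseudocount of 0.1, no filter, no moderation, a replicate block, each library left out, only the 4 libraries compared, either scaling alone, voom weights on the recovered read numbers, a threshold of 1 on the log2 change and, added after the data were seen, transcripts under 200 bases left out.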

Additional observations from a re-analysis of the deposited data

Results flagged for a closer look

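Searched were the named genes and genes called in opposite directions in the LPS and a lipid A experiment. The latter needed a log2 change of at least 0.75 with LPS, 200 bases of exon and no call as with LPS in the other lipid A experiment. For 15 genes searched, both libraries at 1 hr of LPS lay on one side of both resting libraries and the libraries of a lipid A experiment lay the opposite way. Apart from Actb and Itgax, these genes had opposite calls, so their opposite placement was largely fixed by that choice. Over all genes tested, both 1 hr libraries of LPS lay above both resting libraries in 26.9% on deposited TPM. The differences between experiments were not tested, and ligand, genotype and table differ together. With 2 libraries in each group, a search for single outlying samples could not be made.

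Ddit4, an inhibitor of mTORC1, had 3.14 and 3.66 TPM at 1 hr of LPS, against 7.85 and 7.66 TPM at 0 hr (log2 change -0.99), while with lipid A its log2 change was 1.34 in experiment 1 and 0.53 in experiment 4. Cdc42ep3, an effector of CDC42, went the other way round, with 44.8 and 44.0 TPM at 1 hr of LPS, against 24.3 and 22.9 TPM at 0 hr (log2 change 0.88), and log2 changes of -1.13 in experiment 1 and -0.76 in experiment 4. Thbs1, the matrix protein thrombospondin 1, had a log2 change of -1.15 with LPS, 0.58 in experiment 1 and 0.21 in experiment 4. Its level differed widely as well, with 1.63 and 1.94 TPM at 1 hr of LPS, against 216 and 264 TPM at 1 hr of lipid A in experiment 1. For Egfl7 and Fam72a the libraries lay the opposite way in experiment 1 alone, with log2 changes of -0.80 with LPS, 1.07 in experiment 1 and -0.24 in experiment 4 for Egfl7, and 1.04, -1.09 and -0.46 in the same order for Fam72a.

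For the remaining 10 genes the libraries lay the opposite way in experiment 4 and not in experiment 1, where Actb lay the same way as with LPS and the groups of the other 9 genes were not apart on both scalings. Log2 changes follow for LPS, experiment 1 and experiment 4. Ccnd1, cyclin D1, had 2.06 with LPS, -0.17 in experiment 1 and -0.84 in experiment 4. Mcm6, a helicase subunit, had 0.78 with LPS, -0.56 in experiment 1 and -0.74 in experiment 4. Dusp6, a phosphatase of ERK, had 0.94 with LPS, -0.66 in experiment 1 and -1.44 in experiment 4. Neat1, a nuclear non-coding RNA, had 1.60 with LPS, -0.21 in experiment 1 and -0.94 in experiment 4. Itgax, an integrin, had 1.20 with LPS, -0.15 in experiment 1 and -0.55 in experiment 4. Actb, beta-actin, had 0.57 with LPS, 0.11 in experiment 1 and -0.55 in experiment 4. Map3k14, the NF-kB-inducing kinase, had -0.76 with LPS, -0.39 in experiment 1 and 0.51 in experiment 4. Cdca7l had 0.76 with LPS, -0.30 in experiment 1 and -0.61 in experiment 4. Siah1b, a ubiquitin ligase, had 1.03 with LPS, -0.23 in experiment 1 and -0.62 in experiment 4. Zfp451 had 0.84 with LPS, -0.71 in experiment 1 and -1.09 in experiment 4.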

How the results depend on the processing

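For LPS at 1 hr against 0 hr, 172 to 188 of the 188 named genes kept their call and none reversed under the alternatives other than a minimum log2 change of 1, which was not applied to single genes. A minimum log2 change of 1 left 549 risen and 570 fallen genes, 184 risen and 27 fallen list members, and median spans of 13200 bases for risen and 12576 bases for fallen genes. Deposited TPM alone called 3634 fallen genes. Limma voom called 2330 risen and 2683 fallen, and only the 4 libraries compared 2114 and 3175. Leaving out 1 library gave 1104 to 1234 risen and 1468 to 1589 fallen genes, and 988 of the 1607 risen and 1223 of the 2391 fallen genes were called in all 4 of these fits, none in the other direction. In these fits the lone library of a group is assumed to vary like the other groups.

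Deviations of same-numbered libraries at 1 hr and 0 hr correlated at 0.004. The highest such correlation in the LPS experiment was 0.145, between Arid1a f/f and Arid1a-/- cells at 4 hr. These values do not show whether replicates were paired by animal or culture, which the labels do not give. With the replicate block, 1564 genes rose and 2354 fell, of which 1536 and 2286 were among the genes called without it.

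For 4 hr against 1 hr, voom called 3886 and scaled TPM alone 3870 higher genes, a minimum log2 change of 1 left 1047, and deposited TPM alone called 6697 lower. For Arid1a-/- against Arid1a f/f at 1 hr, a minimum log2 change of 1 left 765 genes, and leaving out 1 library gave 2448 to 5162. For lipid A in experiment 1, voom called 2857 and scaled TPM alone 2495 higher genes, deposited TPM alone 6123 lower, and a minimum log2 change of 1 left 566 higher and 1244 lower. In experiment 4 these counts were 2091, 2246, 6309, 398 and 631. The cause of these shifts was not tested. Depth sets a floor of 0.156 to 0.189 TPM, below which resting levels cannot be compared. With 2 libraries a group, the spread rests mostly on variance shared across genes and groups.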
